A study of Mus musculus with 40 samples.

Results

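The CpGs described here are those whose methylation varied most between the livers of 40 male C57BL/6J mice killed at 9 weeks of age, as measured by reduced representation bisulfite sequencing (RRBS). They were chosen from the measured values: an autosomal CpG cytosine was taken if it had a read total in at least 36 mice, a median of at least 20 reads per mouse and a standard deviation (SD) of percent methylation over all mice of at least 15 percentage points. This gave 938 of the 203345 autosomal cytosines that met both coverage criteria, out of 400298 listed. The mice fell into 4 groups of 10: born from low fat (LF) fed dams and fed LF after weaning, born from LF fed dams and fed high fat (HF), born from HF fed dams and fed LF, and born from HF fed dams with HF after weaning as well. All were males of the same inbred strain, and the labels name no other treatment. Each dam had the same diet from before mating until weaning, so these periods cannot be told apart. Mice may have shared a litter or cage, and the labels name neither, so the mouse number was the only label of origin available. Liver holds hepatocytes together with blood, endothelial and stellate cells, and in bulk tissue a change in a cell type's share cannot be told apart from a change of methylation within cells.

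When a cell divides, the methylation of a CpG on the old DNA strand is copied to the newly made strand. A methylation state is thus normally kept through cell divisions, and both strands of a CpG usually carry the same state. CpG-rich promoters are mostly unmethylated, whereas gene bodies and the DNA between genes are mostly methylated. Inbred mice share their sequence, so CpGs at which such mice differ are used to look for variation that is not inherited through sequence. In RRBS the DNA is cut with MspI at CCGG, and bisulfite turns unmethylated cytosine into a base read as T, so the share of reads with C gives the methylation level.

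Some of the loci described below are shown first, on the plus strand of the mouse build NCBIM37 (mm9). Every CpG that met the SD criterion is in capitals. The first CpG had the largest SD, the next stretch carried a group of such CpGs that moved together on separate reads, and the last 2 CpGs were among those with the smallest p by post-weaning diet.
Chromosome 8, intron of 2810004N23Rik, chr8:127385519-127385559: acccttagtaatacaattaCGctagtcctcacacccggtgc
Chromosome 12, between genes, chr12:20238678-20238817: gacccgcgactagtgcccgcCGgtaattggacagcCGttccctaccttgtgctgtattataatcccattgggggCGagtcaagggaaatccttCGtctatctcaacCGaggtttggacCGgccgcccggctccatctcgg
Chromosome 1, 888 bp from Rgs16, chr1:155593466-155593506: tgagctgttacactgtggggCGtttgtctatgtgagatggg
Chromosome 4, promoter of Zc3h12a, chr4:124799588-124799628: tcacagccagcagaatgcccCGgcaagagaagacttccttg

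Read depth differed between mice. The sum of reads over all listed CpGs ran from 2969907 to 23345592 per mouse, with a median in each group between 7682340 and 9922780. At the variable CpGs the median was 12 reads in the mouse with the fewest and 46 in the mouse with the most, and between 533 and 938 of them had a value. The root mean square distance of a mouse from the mean of each variable CpG ran from 10.9 to 20.6 percentage points. Its median was 20.04 in the 4 mice with the fewest reads and 11.7 in the 4 mice with the most.

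Most variable CpGs stood just above the criterion and owed a large part of their SD to the counting of reads. The SD was between 15 and 16 percentage points at 612 of the 938 (65.2%), between 16 and 17 at 230, between 17 and 18 at 65, between 18 and 20 at 26, and 20 or more at 5. The 5 CpGs nearest to the criterion had SDs of 15.0002 to 15.009 inside it and of 14.998 or more outside it. The SD that counting alone would give, from each mouse's number of reads and the pooled methylation level, had a median of 10.9 percentage points, against a median observed SD of 15.6. With the counting variance taken away, the remaining SD had a median of 11.4 and reached 15 at 25 CpGs. The median depth of the variable CpGs was 21.5 reads, and 86.0% had a median of 20 to 25 reads, compared with 66.8% of the 31788 covered CpGs with mean methylation from 20 to 80%. These shares describe the choice, since a lower depth raises the SD.

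**Figure D1:**
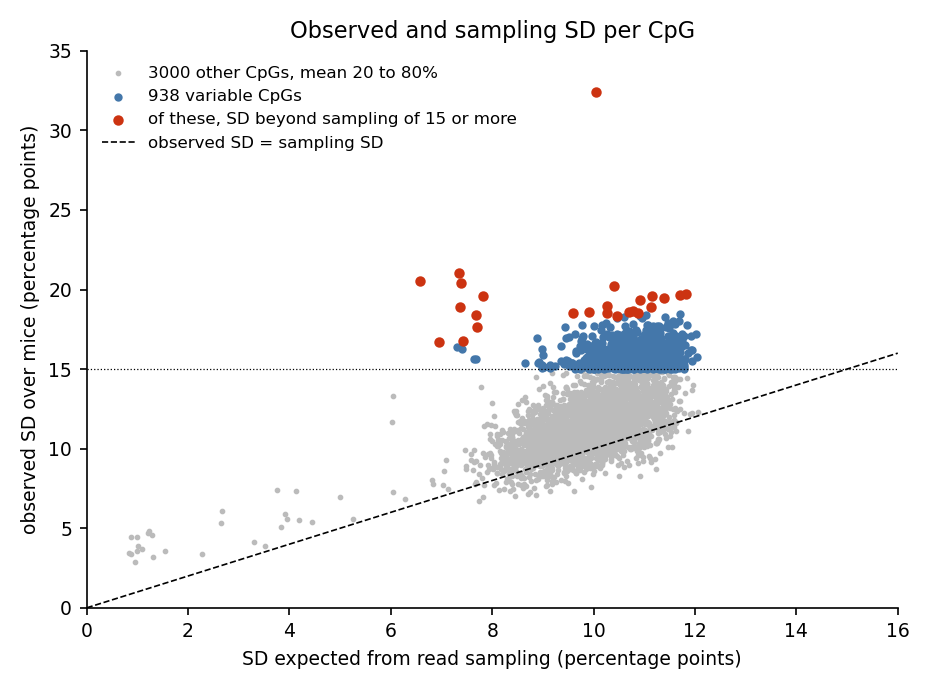
Each point is a CpG, with the SD expected from the counting of reads on the x-axis and the observed SD over mice on the y-axis, both in percentage points; grey points are 3000 other covered CpGs with mean methylation from 20 to 80% (random draw), blue points the 938 variable CpGs and red points the 25 whose SD beyond counting was 15 or more. Most blue points lie in a dense band just above 15, while the red points include 1 at 32.4 and a group at counting SDs below 8.

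The 25 CpGs with a remaining SD of at least 15 lay in 18 loci, where a locus is a chain of variable CpGs at most 1000 bp apart. Of these CpGs, 6 were the whole chromosome 12 locus printed above and 3 lay in a segment of chromosome 17, and 1 was the chromosome 8 CpG. With values counted only on 20 or more reads, 7 CpGs met the criteria: the same 6 of chromosome 12 and 1 of chromosome 17. Among the loci with the largest SDs, those described here that rested on a lone CpG, or on 2, were in coding exons of Nid2, a basement membrane protein (SD 20.2 at chr14:20587806), and of Klhl33 (19.5 at chr14:51512177). Others were in introns of the lincRNA 9330179D12Rik (19.6 at chr6:127133559) and of Spred2, an inhibitor of Ras signalling (19.6 at chr11:19840139), and 39097 bp from Rras2, a small GTPase (18.9 at chr7:121300392). Their median depth was 20 to 23 reads, and the methylation of single mice ran from 26.7 to 100% in Nid2 and from 0 to 95.5% in Spred2.

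The variable CpGs lay mostly outside promoters. Promoters (1000 bp before to 500 bp after a transcription start) held 97 of them (10.3%), coding exons 129 (13.8%), untranslated regions 21 (2.24%), introns 282 (30.1%) and intergenic DNA 405 (43.2%). Among all covered autosomal CpGs 44.8% were in promoters, but among those with mean methylation from 20 to 80% the share was 11.8%, close to that of the variable CpGs. Their mean methylation ran from 24.0 to 79.3%, which the SD criterion favours. CCGG, the MspI site itself, held 568 of the variable CpGs (60.6%), compared with 55.2% of the covered CpGs with mean methylation from 20 to 80%. The 31 bases around the CpG occurred at more than 1 place in the genome for 23 of them. The variable CpGs formed 832 loci, of which 768 held a lone CpG and 64 held 2 or more, and 9 loci held at least 4 and at most 12.

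The CpG with the largest SD, at chr8:127385539 in an intron of 2810004N23Rik, a protein-coding gene on the minus strand, was the only one whose values were placed in 3 levels at the margin used. The read counts were compared under 3 descriptions by the Bayesian information criterion (BIC), in which a lower value is the better description and a margin of 6 was asked for. These were graded values, 3 levels (near 0, a top level and the midpoint between 0 and the top), and 2 free levels. At this CpG the 3 levels were ahead of graded values by 22.4. The lowest level held 7 mice, with 0 to 4.35% methylation on 29 to 46 reads. The middle level, fitted at 45.5%, held 18 mice at 31.03 to 66.7%, and the top level, fitted at 90.9%, held 14 mice at 72.7 to 100%. The gaps between the levels were wide at the bottom, where no mouse lay between 4.35 and 31.03%, and narrow at the top, where mice lay at 66.7 and 72.7%.

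The mice of the lowest level were numbers 97, 99, 100, 101, 108, 109 and 183. All of the mice numbered 122 to 128 were at the top level. Mice 173 to 182 were all at the middle level, though mice 172 and 183 beside them were at the top and lowest levels. Mice with close numbers were often at the same level: of 26 pairs of mice next to each other in number and at most 2 apart, 18 shared a level. How many would share a level by chance was not computed. Each diet group held all 3 levels. The lowest, middle and top levels held 2, 5 and 2 of the LF dam, LF fed mice, 2, 6 and 2 of the LF dam, HF fed mice, 2, 3 and 5 of the HF dam, LF fed mice, and 1, 4 and 5 of the HF dam, HF fed mice. The next covered CpG on the same strand, 16 bp away and so often on the same reads, was methylated at 67.5 to 100% (median 87.5%) and had an r of 0.01 with the first over 39 mice. A CpG 115 bp away was methylated at 87.0 to 100%. A base change that removes the CpG in some mice would also give 3 levels in bisulfite reads, and whether these mice carry one was not tested, since only counts and no read sequences were used.

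**Figure D2:**
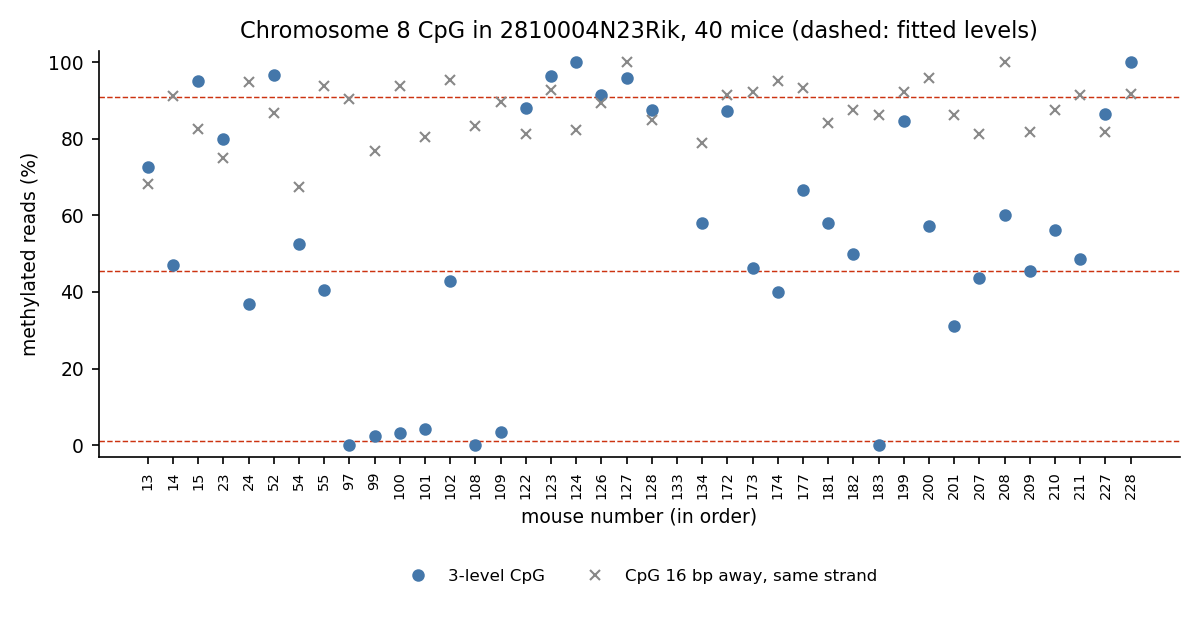
Percent methylation (y-axis) in each mouse, ordered by mouse number (x-axis), at the chromosome 8 CpG in 2810004N23Rik (circles) and at the CpG 16 bp away on the same strand (crosses), with the fitted levels as dashed lines. Circles lie near 0 in 7 mice and spread around 45.5% and 90.9% in the others, while no cross is below 67.5%.

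At the other variable CpGs the margin of 6 rarely allowed a choice between patterns. Graded values were ahead of both alternatives by at least 6 at 69 CpGs (7.36%), 2 levels were ahead at 9, and 859 (91.6%) were undecided. Of the 9, at chr9:31770858, 26518 bp from Gm3756, the fitted levels were 38.5 and 93.2%. The next CpG of that locus, 29 bp away at chr9:31770887, had levels of 28.3 and 83.8%.

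On separate reads, the typical variable CpG showed little likeness with its neighbours, though in some loci the variable CpGs were more alike. Reads were 50 bases long and came from 1 end of a fragment, so CpGs on the same strand and at most 50 bp apart can share reads, and their likeness over mice then includes the counting error they share. Such pairs had a median Pearson r of 0.51 over 1088 pairs, which rose to 0.79 over the 206 pairs (each counted from both ends) in which both were variable CpGs. The other strand of the same CpG, which should carry the same methylation state but is read from other molecules, had a median r of 0.10 over 46 pairs, and no pair reached 0.5 (highest 0.43). CpGs 51 to 1000 bp away had a median r of 0.08 over 1720 pairs, of which 47 (2.73%) reached 0.5. The 116 of these in which both were variable CpGs (each pair counted from both ends) had a median of 0.37, and 40 (34.5%) reached 0.5. They differed between loci, with a median r of 0.79 in the chromosome 12 locus and 0.54 in Scara5. In the loci of 1700027D21Rik, Gm1614 and 3110070M22Rik the median was 0.36, 0.09 and -0.07. With the chromosome 17 segment described below, the median was 0.25 over 3704 pairs farther apart (177 at 0.5 or more, 4.78%). Over the 170 pairs of variable CpGs, again counted from both ends, it was 0.47 (70 at 0.5 or more, 41.2%). The other counts leave out that segment, and all counts take only partners with mean methylation from 10 to 90%. All pairs share the library and its depth, and r is given as a description. Counting error alone, with a median of 10.9 of 15.6 percentage points of SD, lowers the r that separate reads can reach.

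**Figure D3:**
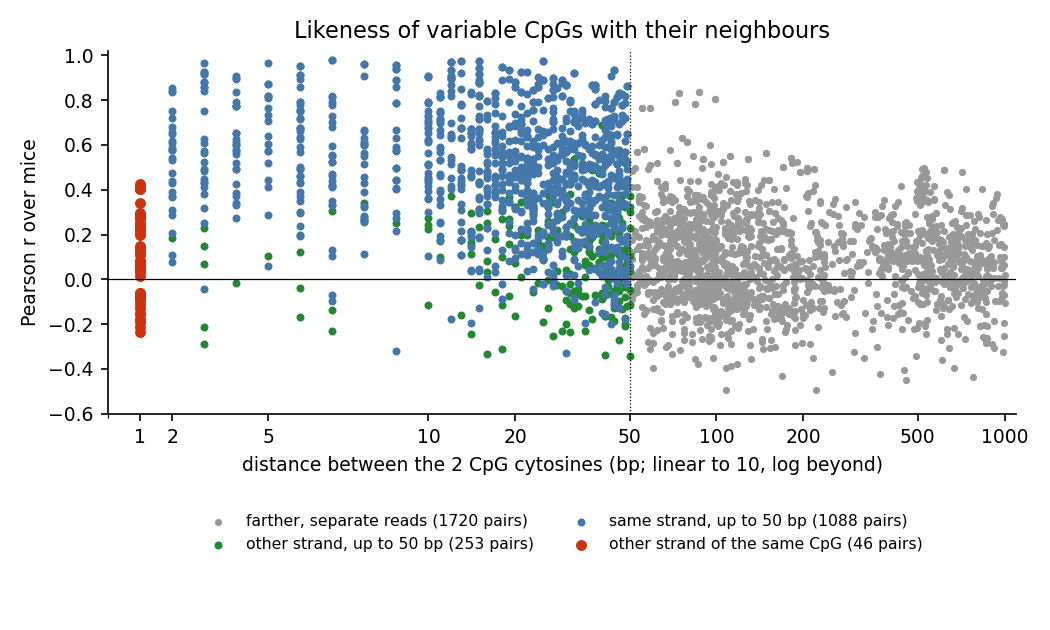
Pearson r over mice (y-axis) of each variable CpG with a covered neighbour against the distance between them in bp (x-axis, linear to 10 and logarithmic beyond), coloured by whether the pair can share reads; the dotted line marks 50 bp. Pairs on the same strand within 50 bp centre on 0.51, whereas the 46 pairs on opposite strands of the same CpG and the 1720 pairs farther apart centre on 0.10 and 0.08.

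Of the 938 variable CpGs, 520 had a neighbour on separate reads to compare, and 418 had none. A neighbour at an r of at least 0.5 was found for 40 CpGs in 14 loci. The chromosome 12 locus had the highest of these r values. Its 6 variable CpGs span 100 bp at chr12:20238698-20238797, 183002 bp from Gm10479, the nearest annotated gene, and were the only tested CpGs in that span. Their SDs were 17.6 to 21.1 percentage points on median depths of 43.5 to 50.5 reads. The 31 bases around 1 of the 6 occurred at 5 places in the genome, while those around each of the other 5 were unique. Pairs that could share reads had r of 0.92 to 0.97, the 7 pairs farther apart than a read had r of 0.76 to 0.83 over 40 mice, and the 1 pair on opposite strands within 50 bp had r of 0.69. With all 17 to 19 covered neighbours on separate reads within 1000 bp, the median r of each CpG was only 0.02 to 0.08.

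At chr12:20238797, the CpG with the largest SD of the locus, methylation was 20.8 to 79.5% (median 42.2%) in LF dam, LF fed mice, 23.0 to 73.5% (median 39.6%) in LF dam, HF fed mice, 14.7 to 77.9% (median 48.7%) in HF dam, LF fed mice and 0 to 76.0% (median 39.6%) in HF dam, HF fed mice. The 4 groups overlapped over nearly their whole range. In the order of mouse numbers, the high values formed a run, with its ends set by the values. The 13 mice numbered 55 to 127 were at 54.8 to 79.5%, and the other 27 mice were at 0 to 52.3%, so no mouse outside that run of numbers reached the lowest mouse within it. Mice 54 (30.8%) and 128 (36.8%) lay outside the run, next in number to mice 55 (77.9%) and 127 (77.2%) of the same diet group. The run held 3, 2, 5 and 3 mice of the 4 groups in the order above. At the other 5 CpGs of the locus between 2 and 4 of the 27 lay above the lowest of the 13. The depth at the locus split the same mice. At this CpG the 13 mice had 73 to 324 reads (median 124) and the other 27 had 16 to 71 (median 34), while their total reads overlapped (6439921 to 23345592 and 2969907 to 15650573). Methylation and depth thus moved together at this locus, and the part of depth in the result was not tested. The run was noticed in the values, and what the mice in it share apart from their numbers was not tested.

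**Figure D4:**
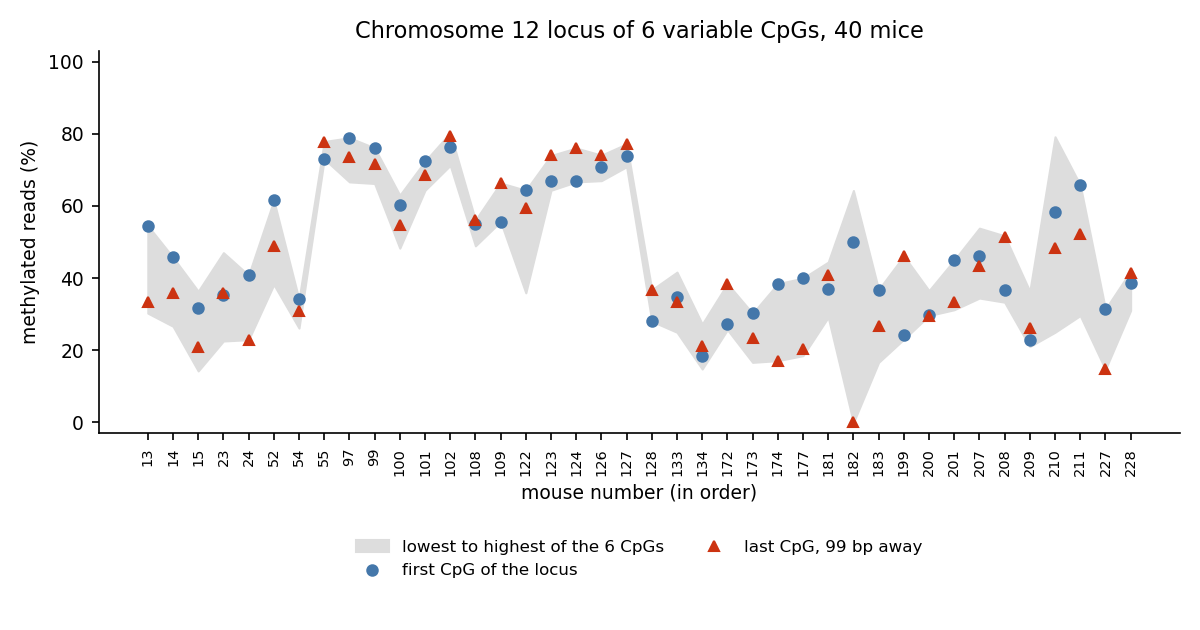
Percent methylation (y-axis) per mouse in order of mouse number (x-axis) at the first and last of the 6 variable CpGs of the chromosome 12 locus, with the range of all 6 in grey. At the last CpG the 13 mice from number 55 to number 127 sit at 54.8 to 79.5% and the others at 52.3% or less.

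Over mice, the CpGs elsewhere in the genome that were most like chr12:20238797 were 4 CpGs in Mid1 on chromosome X, from chrX:166435744 (r = 0.82) to chrX:166435786 (r = 0.65), among 128847 CpGs with an SD of at least 5 percentage points that lay on other chromosomes or more than 10000 bp away. The largest of so many r values tends to be high, and whether chance gives values this large was not tested. For the chromosome 8 CpG the largest r was 0.70, and for the leading CpGs of the Scara5 and Fgg loci 0.68 and 0.70. The CpGs most like the chromosome 8 CpG included chr17:39983163, chr17:39983172 and chr17:39983184, near the chromosome 17 locus described below. The 201 bases around the chromosome 12 and the closest X CpG aligned over only 11 bases, of which 10 were identical. For chrX:166435773 and chrX:166435754 the alignment covered 20 bases, of which 18 were identical.

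Likeness between mice with close numbers was looked at across all variable CpGs. For each CpG the mean squared difference between mice whose numbers differed by at most 2 (38 pairs, 31 of them within a diet group) was divided by that between all other pairs. The ratio had a median of 0.986 over the variable CpGs and 0.991 over the covered CpGs with mean methylation from 20 to 80%, so mice with close numbers were hardly more alike than others at the typical CpG. It was below 0.5 at 10 variable CpGs (1.07%, compared with 0.478% of the covered CpGs in that range): the chromosome 8 CpG (0.322), 4 CpGs of the Scara5 locus (0.327 to 0.417), 4 of the chromosome 12 locus (0.424 to 0.485) and the Zc3h12a promoter CpG (0.4931). Since most close pairs shared a diet, number and diet cannot be told apart in this ratio at the Scara5 CpGs, which differed by post-weaning diet, nor at the Zc3h12a CpG described below.

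Most of the variation at the typical variable CpG lay within the diet groups. The share of the variance that lay between the 4 diet groups had a median of 7.68%, close to the 7.26% over all tested CpGs. Group means differ somewhat even where diet has no effect, so this share is above 0 in any case and does not measure an effect of diet. Each CpG was compared between HF and LF by the two-sided test of means that the study used. The false discovery rate (FDR) was taken over the CpGs with a total in 36 or more mice that varied within the groups compared. At an unadjusted p below 0.05, 54 variable CpGs (5.76%) differed by maternal diet in mice fed HF, compared with 3.72% of all CpGs tested, and 69 (7.36%) in mice fed LF, compared with 3.99%. By post-weaning diet, 70 (7.46%) differed in mice born from LF fed dams, compared with 4.03%, with an FDR below 5% at 0 of them and at 2 CpGs in all (0.00084%), and 112 (11.9%) in mice born from HF fed dams, compared with 4.06%. In this last comparison 91 of the 112 were lower with HF feeding (background 2.6%) and 21 higher (background 1.46%), and the 112 lay in 92 loci. Over all 40 mice the maternal term had a p below 0.05 at 45 variable CpGs (background 3.96%), the post-weaning term at 110 (background 4.34%) and the interaction at 65 (background 4.18%).

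These shares above the background cannot be read as a property of variable CpGs, because the SD that chose them contains the differences between diets. When 951 CpGs were chosen instead by an SD of at least 15 within diet groups (742 of them among the 938), 35 (3.68%) differed by post-weaning diet in mice born from HF fed dams and 17 (1.79%) in mice born from LF fed dams, and 18 (1.89%) and 26 (2.73%) differed by maternal diet in mice fed HF and LF, all below the backgrounds given above. That choice in turn favours a wide spread within groups and so lowers the number of calls.

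No variable CpG reached an FDR below 5% by maternal diet. The smallest FDR was 0.822 in mice fed HF and 0.818 in mice fed LF, although 54 and 69 had an unadjusted p below 0.05, and limma gave 0 as well. The CpGs with the smallest p by maternal diet were a CpG 9590 bp from Trim13, a ubiquitin ligase (23.4 percentage points lower with HF fed dams among mice fed HF, SE 6.95), and a CpG in an intron of Opcml, a cell adhesion gene (18.6 higher, SE 5.96). Among mice fed LF, CpGs in the promoter of Otop2, a proton channel gene, and in an intron of Piwil4, a gene of the piRNA pathway, were each 20.7 higher with HF fed dams (SE 5.78 and 5.81), and a CpG 177110 bp from Gm17350 was 19.5 higher (SE 5.27).

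By post-weaning diet the calls were concentrated in Scara5, which encodes a scavenger receptor able to bind ferritin. Its locus of 8 variable CpGs spans 153 bp of a coding exon at chr14:66378373-66378525, with 9 tested CpGs inside. Over all 40 mice, 5 variable CpGs had an FDR below 5% for post-weaning diet out of 6 among all CpGs tested (0.00236%), and 4 of the 5 lay in this locus. At chr14:66378499, methylation was 53.3 to 80% (median 63.96%) in LF dam, LF fed mice, 35.7 to 63.6% (median 55.1%) in LF dam, HF fed mice, 60.9 to 96.2% (median 77.5%) in HF dam, LF fed mice and 23.5 to 51.9% (median 36.7%) in HF dam, HF fed mice. The last 2 groups did not overlap, while the first 2 did. Among mice born from HF fed dams the mean was 37.1% ± 9.29 (SD, n = 8) with HF feeding and 79.3% ± 11.5 (SD, n = 10) with LF feeding (exact permutation p = 4.57e-05, the smallest the test can give). This difference of -42.2 percentage points (SE 5.03) was the largest of any CpG tested in that comparison, and its FDR of 0.0236 made it the only variable CpG below 5%, out of 3 CpGs in all (0.00124%). In mice born from LF fed dams the same CpG differed by -14.2 percentage points, and the interaction had an unadjusted p of 0.000119 and an FDR of 0.868.

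The call at that CpG in mice born from HF fed dams was lost with limma, with mean methylation of the mouse as a covariate (difference -43.0) and with values on 20 or more reads (difference -38.8), at FDRs of 0.0567, 0.22 and 0.182, and the direction was kept in each. The exact Wilcoxon test (FDR 0.937) already gave the smallest p that these numbers of mice allow, so its loss of the call says nothing about this CpG. None of the 4 mice with the fewest reads had a value in this comparison, so leaving them out did not bear on it, and its FDR of 0.0353 then came from the other CpGs alone.

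The differences ran across the whole Scara5 locus. In mice born from HF fed dams all 8 CpGs were lower with HF feeding, by 14.4 to 42.2 percentage points, and 7 had a p below 0.05. In mice born from LF fed dams 7 of the 8 were lower, with differences from -19.3 to 1.06 points, and 5 had a p below 0.05. The post-weaning term over all 40 mice was -27.4 (SE 3.96) at chr14:66378499, -23.9 (SE 4.03) at chr14:66378502, -27.0 (SE 3.81) at chr14:66378522 and -26.8 (SE 3.46) at chr14:66378525, with FDRs of 0.00353, 0.0409, 0.00353 and 0.0013. These 4 CpGs lie within 27 bp on the plus strand and can share reads, so they are not separate measurements. Pairs in the locus on separate reads had r of 0.42 to 0.63. With only values on 20 or more reads none of the 4 stayed below an FDR of 5% (0.0986 to 0.3), and limma took chr14:66378502 to 0.0602. By maternal diet, the differences with HF fed dams were 4.55 to 21.2 points among mice fed LF (4 of the 8 CpGs with p below 0.05) and -14.8 to 5.75 among mice fed HF, where 6 of the 8 were negative and 1 had a p below 0.05, and no FDR was below 0.818. Mouse 52 of the HF dam, HF fed group had 96.3% at chr14:66378525, within the range of mice fed LF, while the other 7 mice of its group with a value were at 40 to 60.7%.

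**Figure D5:**
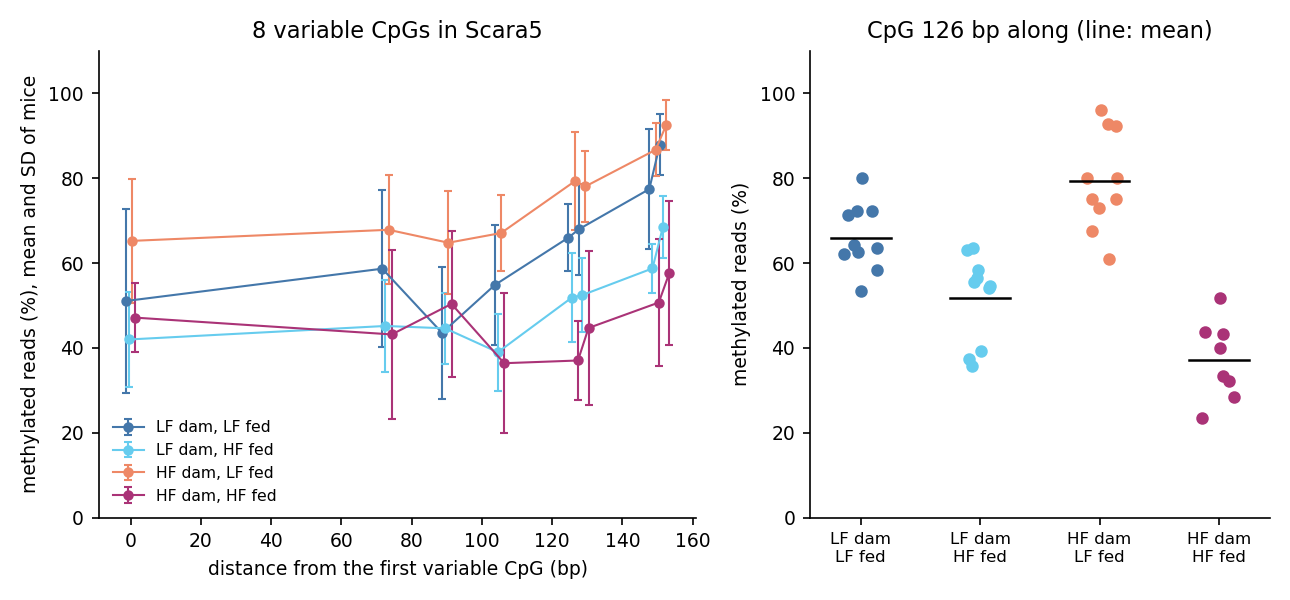
Left, mean percent methylation with SD over mice (y-axis) at the 8 variable CpGs of Scara5 against their distance from the first in bp (x-axis), for the 4 diet groups named by the diet of the dam and then of the mouse. Right, each mouse at chr14:66378499, 126 bp along, with the group mean as a line: the HF dam, HF fed mice (23.5 to 51.9%) lie below all HF dam, LF fed mice (60.9 to 96.2%).

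The fifth CpG with an FDR below 5% for post-weaning diet over all 40 mice was chr1:155593486, 888 bp from Rgs16, which encodes a protein that shortens G protein signalling. Methylation was 26.7 to 52.9% (median 33.3%) in LF dam, LF fed mice, 55 to 76.9% (median 63.3%) in LF dam, HF fed mice, 19.05 to 51.5% (median 34.0%) in HF dam, LF fed mice and 37.5 to 75% (median 60%) in HF dam, HF fed mice. In contrast to Scara5 it was higher with HF feeding, with no overlap among mice born from LF fed dams (28.4 percentage points, exact permutation p = 8.23e-05) and some overlap among mice born from HF fed dams (22.2 points). The term over all 40 mice was 25.1 (SE 3.59, FDR 0.00353) and the interaction had a p of 0.397. The values rest on 10 to 43 reads, and with values on 20 or more reads the FDR was 0.901.

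In the promoter of Zc3h12a, an endonuclease that degrades transcripts of inflammatory genes, chr4:124799608 was 12.5 to 76.9% methylated (median 35%) in LF dam, LF fed mice, 14.3 to 47.6% (median 28.6%) in LF dam, HF fed mice, 35.3 to 62.5% (median 50%) in HF dam, LF fed mice and 9.09 to 41.7% (median 21.4%) in HF dam, HF fed mice. Of the 9 HF fed mice born from HF fed dams, 8 lay below all 10 LF fed mice. The difference was -28.2 percentage points (SE 4.04, exact permutation p = 6.50e-05) with an FDR of 0.107. Without the 4 mice with the fewest reads, left out after seeing the data, it was -30.6 points with an FDR of 0.0353, so the call at this CpG rests on those mice, and over the alternatives the FDR ran from 0.0353 to 1. A CpG in an intron of Ergic1 at chr17:26771165 was 26.7 points higher with HF feeding in mice born from LF fed dams (SE 6.57, exact permutation p = 0.00107, FDR 0.808).

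The largest locus held 12 variable CpGs within 408 bp at chr17:39981775-39982182, with the leading CpG 3250 bp from the pseudogene AY036118, in a segment of unusually high depth in some mice. From background knowledge, and not from the annotation used here, this part of the assembly is thought to hold a copy of the ribosomal RNA repeat, which stands in many copies in the genome. In that span 45 CpGs were tested. At chr17:39981798 between 18 and 1085 reads stood behind a value. Methylation there was 16.98 to 89.0% (median 57.2%) in LF dam, LF fed mice, 25.6 to 75% (median 56.9%) in LF dam, HF fed mice, 8.33 to 61.9% (median 51.4%) in HF dam, LF fed mice and 56.0 to 90.2% (median 68.1%) in HF dam, HF fed mice. All 12 CpGs were higher with HF feeding among mice born from HF fed dams, by 10.1 to 28.6 percentage points, and 8 had a p below 0.05 but none an FDR below 5%. Among mice born from LF fed dams the differences were -0.82 to 7.15 points, and none of the 12 had a p below 0.05. Depth differed between the groups too: at chr17:39981798 the HF dam, HF fed mice had a median of 97 reads (21 to 1085) and the HF dam, LF fed mice of 40.5 (21 to 116), and the part of depth in the difference was not tested. The 8 mice with the lowest values at chr17:39981798 (8.33 to 33.3% on 18 to 53 reads) were numbers 100, 101, 102, 108, 109, 126, 127 and 208, of which 4 were HF dam, LF fed mice, 3 LF dam, LF fed mice and 1 a LF dam, HF fed mouse. Pairs of variable CpGs on separate reads had r of 0.16 to 0.69 more than 50 bp apart and of 0.48 to 0.78 on opposite strands within 50 bp. At the 6 of them with a covered other strand, however, that strand of the same CpG had r of only -0.03 to 0.41 over 40 mice and SDs of 6.92 to 9.33 percentage points.

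Of the other loci with at least 4 variable CpGs, those with both kinds of pair had higher r where reads could be shared than on separate reads. In Fgg, which encodes the gamma chain of fibrinogen, made in hepatocytes, 6 CpGs lay within 31 bp of a coding exon at chr3:82816770-82816800 and had r of 0.84 to 0.96 with each other, and no pair was on separate reads. At chr3:82816797 methylation was 8 to 47.6%, 10 to 83.3%, 14.3 to 58.3% and 7.14 to 66.7% in the 4 groups in the order above, all overlapping, and none of the 6 differed by diet at a p below 0.05 in any comparison. In the locus at 3110070M22Rik, 3 CpGs within 16 bp had r of 0.96 to 0.98, whereas their r with the fourth, more than 50 bp away, was -0.08 to -0.06. In the locus 5209 bp from Dcst1 and in that of Txn1, each with 4 variable CpGs, all pairs could share reads and had r of 0.64 to 0.80 and of 0.42 to 0.67. In Gm1614 pairs on separate reads had r of -0.04 to 0.25. In 1700027D21Rik, with 7 variable CpGs within 219 bp, they had r of 0.10 to 0.54. At chr10:76032589 in that locus the HF dam, LF fed mice had 48.4 to 95.5% (median 84.3%) and the HF dam, HF fed mice 21.4 to 88.2% (median 54.7%). In mice born from LF fed dams the difference with HF feeding at this CpG was -7.41 points, and 0 of the 7 had a p below 0.05 by post-weaning diet. For the post-weaning term over all 40 mice, 3 of the 7 had a p below 0.05 but none an FDR below 5%.

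Gene lists of imprinting, of variable methylation and of cell types held too few covered CpGs to say whether variable CpGs were rare or frequent among them, and their counts are given as a description. Imprinted genes carry methylation on the chromosome from only 1 parent, so a level near the middle is usual at their control regions. Of 21 such genes listed, 17 had covered CpGs within 5000 bp, and these 182 CpGs included 4 variable ones (2.20%, beside 0.461% of all covered CpGs, most of which lie outside the range of means that the SD criterion favours). Of these, 2 lay 5 bp apart in the promoter of Airn within Igf2r, at chr17:12962599 and chr17:12962604, with means of 50.2 and 53.1%, and 2 in Gnas, at chr2:174113222 and chr2:174123938, with means of 44.4 and 54.8%. Their SDs were 15.1 to 16.1 percentage points, close to the criterion. None of the 110 covered CpGs near 8 loci known for variable methylation beside an IAP element, a retrotransposon, was a variable CpG, nor was any of 25 near hepatocyte genes or of 82 near blood and Kupffer cell genes. Of 104 near endothelial and stellate cell genes, 1 was variable, in a coding exon of Pdgfrb (mean 52.3%, SD 15.2). Whether the share of any cell type moved with the values of the variable CpGs was not tested.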

How the data were processed

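Liver DNA was measured by RRBS, with MspI digestion and single-end reads of 50 bases aligned with Bismark to mm9 per the labels and the study's methods. The authors deposited counts of methylated reads and of all reads per CpG cytosine and mouse, with totals listed from 10 reads, and the same values as a fraction, which equals the ratio of the deposited counts. The variable CpGs, gene lists and tests were chosen with earlier results of these data known. Named were the 10 loci with the largest SD, the 6 with the most members, up to 5 CpGs best placed in 3 levels, the 3 CpGs with the smallest p per comparison, every CpG with an FDR below 5% and members near listed genes; 1 of these loci and 1 sequence are not reported here. Where text outside this rule names a CpG or locus (Gm3756, Dcst1, Txn1, 3110070M22Rik), it was chosen after its values were seen.

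Percentages were computed from the counts, and genes came from GENCODE on NCBIM37. Diet pairs were compared by a two-sided Student's t-test, as in the study, with permutation p-values for named CpGs, and terms over 40 mice by linear models. Benjamini-Hochberg adjustment was made over the CpGs with a total in 36 or more mice that varied within the groups compared. limma 3.58.1 (R 4.3.3), Welch's and exact Wilcoxon tests, a covariate for mean methylation, and other limits on reads and SD were alternatives. The tests and the pattern choice were tested on simulated data. Python 3.11.15, NumPy 2.4.6, SciPy 1.17.1 and pandas 2.3.3 were used. Reads carry no molecular identifiers, so counting error assumes that each read is a separate molecule. The labels give no litter, so p-values treat mice as independent.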

Additional observations from a re-analysis of the deposited data

Results flagged for a closer look

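In 30 named CpGs and the 4 diet groups, 120 combinations were examined for a mouse far from the rest of its group, and 10 were found, where about 1 in 20 would be found by chance. In Scara5, a HF dam, HF fed mouse stood at 96.3% at chr14:66378525 (next 60.7%) and at 84.6% at chr14:66378522 (next 54.3%), and a LF dam, HF fed mouse stood at 50% at chr14:66378525 (next 66.7%). In Airn, a LF dam, HF fed mouse stood at 93.3% at chr17:12962599 and at 100% at chr17:12962604, with the next mouse at 63.6% at both. In the same group a mouse stood at 78.3% in Piwil4 (next 57.9%) and at 11.8% at chr2:174113222 in Gnas (next 37.9%). A HF dam, HF fed mouse stood at 95.5% at chr11:19840139 in Spred2 (next 50%). Among HF dam, LF fed mice, 1 stood at 71.4% in Ergic1 (next 50%) and 1 at 3.45% in Gm1614 (next 17.2%). No variable CpG had an interaction of the diets with an FDR below 5%, though 65 had an unadjusted p below 0.05.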

How the results depend on the processing

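Depth and the SD threshold decided how many CpGs were called variable. The 938 became 11630 at an SD of 12 and 5 at an SD of 20, 25 at a median of 30 reads, 7 with values on 20 or more reads, 109 with a value in all 40 mice, and 25 with the counting variance removed. With values on 20 or more reads, 27 of 592, 26 of 509 and 27 of 415 variable CpGs tested had a p below 0.05 by maternal diet in mice fed HF, by maternal diet in mice fed LF and by post-weaning diet in mice born from LF fed dams, beside 3.87, 4.29 and 4.45% of all CpGs tested, so fewer CpGs entered each count. The choice by SD within diet groups, chosen after seeing the data, gave 18, 26, 17 and 35 in the 4 comparisons and 18, 37 and 22 for the maternal, post-weaning and interaction terms. For post-weaning diet in mice born from HF fed dams, the 1 CpG with an FDR below 5% became 0 with the exact Wilcoxon test, whose p was already the smallest it can give and which is no sign of instability, with values on 20 or more reads, the covariate, limma, the choice within groups and without loci of 4 or more variable CpGs, and 2 without the 4 mice with the fewest reads. The 5 CpGs of the post-weaning term became 0 with values on 20 or more reads and with the choice within groups, and 1 without loci of 4 or more. Leaving out those mice or loci was also chosen after seeing the data. At a BIC margin of 2, 574 CpGs were graded, 36 had 2 levels, 2 had 3 levels and 326 were undecided, and at a margin of 10, 21 were graded and 0 had 2 levels. The cause of these changes was not tested, except that fewer reads or CpGs enter by construction. The other 97 values and counts over the variable CpGs stayed within the tolerance used (a factor of 1.5 for a count), which still allowed 938 to become 1278 without the 4 mice with the fewest reads, 112 to become 76 with values on 20 or more reads and 78 with the covariate, and 69 to become 48 with the covariate. Of the values computed under alternatives for diet differences at named CpGs, 69 stayed on the same side of the threshold, 14 no longer passed it, 1 newly reached an FDR below 5% (Zc3h12a, 0.0353, without the 4 mice with the fewest reads) and 0 turned direction. No paired analysis was made because the labels name neither litters nor shared replicate numbers. In the study the males of each cage were divided between the post-weaning diets, while mice of the same litter share the maternal diet. Litter can thus bear differently on the maternal and post-weaning comparisons, which was not tested.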
